A study of Homo sapiens with 27 samples.

Results

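The hyperactive change was examined within re-engineered piggyBac transposase, with a symmetric transposon as the cargo. The comparison used 6 of the 27 libraries of the series, chosen by their labels: 3 libraries of re-engineered hyperactive piggyBac (sym_rehyPB) and 3 of re-engineered piggyBac without the hyperactive change (sym_rePB). The host of all 6 was HCT116, a long-established colorectal cancer line of human origin. The cells received a self-reporting transposon and were selected in puromycin (3 µg/ml) over 2 weeks. Both groups therefore shared the line, the symmetric transposon, the re-engineering and the drug selection. The labels do not spell out which changes the words symmetric, re-engineered and hyperactive stand for. They do not say whether replicates were separate transfections, so p-values measure only the spread between these libraries, which may be technical.

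PiggyBac is a cut-and-paste DNA transposon first found in an insect. Its transposase binds the transposon ends, excises the element and inserts it at a TTAA sequence, which is duplicated on both sides of the new copy. Hyperactive versions of the transposase are used in genome engineering to raise the number of integrations per cell. In a self-reporting transposon an internal promoter reads outward into the flanking DNA, so an insertion is located from RNA. The peak height at a site therefore depends on how many cells carry the insertion, how strongly the cargo promoter works there and how often molecules were amplified, and these cannot be told apart here.

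The target sequence was visible in the deposited positions. RefSeq promoter windows, which run from 250 bases before to 50 bases after a gene start, held 288 library sites, counted once per library. Of these, 279 (96.9%) lay exactly on TTAA, although TTAA made up 0.303% of the start positions in those windows and 46.1% of the 35116 windows held at least 1. The share on TTAA was 95.9% ± 1.5 in sym_rePB and 97.5% ± 1.3 in sym_rehyPB (SD, n = 3 each), and the groups overlapped. The following 5 recurring targets are plus-strand RefSeq sequence of GRCh38.p14, with the TTAA in capitals and 13 bases on either side. They were picked to show targets listed in all 6 libraries, a target listed in 5, and a target listed only with the hyperactive enzyme. Targets leaning the other way were not picked. The target of CHMP4A had heights of 8, 5 and 5 in sym_rePB and a single listing, of 5, in sym_rehyPB. The target of RAET1E-LRP11 was listed only in sym_rePB, with heights of 9 and 6.
PCOLCE2 (chr3:142889095-142889124): ggcggaggcacttTTAAaggcgattatggt
EFCAB2-AS1 (chr1:244971071-244971100): ccattttgcctccTTAAtgaggacgcagga
HSD17B1-AS1 (chr17:42555022-42555051): tgtgggtggctaaTTAAgatagatcgcgtt
TDP1 (chr14:89955729-89955758): ttctcctctcgttTTAAgaagtctccagga
PRDX3 (chr10:119178925-119178954): ggagaaattccctTTAAggctgaatgcttg
The target upstream of PCOLCE2, which encodes an enhancer of procollagen processing, begins 25 bases before the gene start. Its peak heights were 9, 12 and 18 in sym_rePB and 18, 15 and 13 in sym_rehyPB, so both transposases used it in every library. The targets 215 bases before EFCAB2-AS1 and 233 bases before HSD17B1-AS1, both antisense RNA genes, were also listed in all 6. The target 185 bases before TDP1, a DNA repair enzyme, was listed in 2 sym_rePB libraries and all 3 sym_rehyPB libraries. The target 126 bases before PRDX3, a mitochondrial peroxide-removing enzyme, was listed only in sym_rehyPB, with heights of 9, 5 and 13. It was also in the pooled lists of the wild-type transposon with re-engineered piggyBac. Within 10 bases of the listed targets, A and T made up 47.5% of the bases in sym_rePB and 49.2% in sym_rehyPB, against 58.6% around every TTAA of the windows.

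The libraries with hyperactive re-engineered piggyBac held more integration sites. A site here is 1 distinct genomic position, counted once per library. The sym_rePB libraries held 3212, 2814 and 3143 sites and the sym_rehyPB libraries 3950, 3801 and 4570. Every sym_rehyPB library lay above every sym_rePB library, with a ratio of 1.34 between the groups (geometric means). The file totals, a constant in each list taken as the number of reads behind it, ran from 234082 to 255694 in sym_rePB and from 225962 to 245870 in sym_rehyPB, so the higher site numbers did not go with larger totals. Per 1000000 of the file total, a measure called the site rate here, sites numbered 12494 ± 1141 in sym_rePB and 17509 ± 945 in sym_rehyPB (SD, n = 3 each), a ratio of 1.40. An exact two-sided permutation test gave p = 0.1 for both measures, which is the smallest value that 3 against 3 libraries can give, and 0.217 after Benjamini-Hochberg adjustment over the 13 single-value measures. The number of protein-coding genes with at least 1 site was 1136, 945 and 1092 against 1299, 1266 and 1489.

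The excess was larger among tall peaks. For heights of 5 to 6, the lowest the authors listed, the site rates stood at a ratio of 1.32 between sym_rehyPB and sym_rePB. The ratio was 1.42 for heights of 7 to 9, 1.76 for 10 to 19 and 2.81 for heights of 20 or more. In that last class the sym_rePB libraries held 19, 20 and 17 sites and the sym_rehyPB libraries 51, 45 and 55. The share of sites with a height of 10 or more was 10.7%, 10.7% and 10.7% in the sym_rePB libraries, with an SD of 0.0280 percentage points. It was 13.7%, 14.5% and 13.4% in the sym_rehyPB libraries, all above sym_rePB (difference 3.19 percentage points, exact permutation p = 0.1, adjusted 0.217). The heights summed over the listed peaks came to 9.36%, 7.77% and 8.33% of the file total in sym_rePB and to 12.2%, 12.2% and 13.3% in sym_rehyPB. The median peak width was 64.3 ± 6.8 bases and 64.0 ± 3.0 bases.

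**Figure D1:**
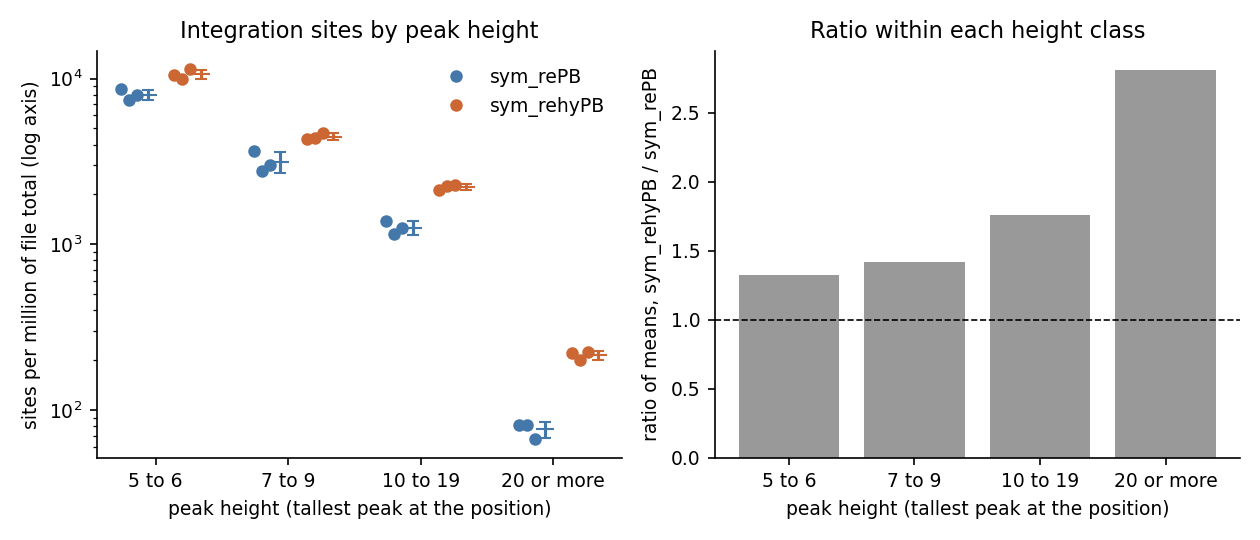
Site rate (sites per 1000000 of the file total) by peak height in the 3 sym_rePB and 3 sym_rehyPB libraries (left, log axis; points are libraries, bars the mean and SD) and the ratio of the group means in each class (right). The groups do not overlap in any class, and the ratio is 1.32 in the lowest class and 2.81 in the tallest.

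Site number and peak height are not separate measures here, since only heights of 5 or more were listed. Heights were therefore thinned in 2 ways, both chosen after the data were seen. When those still listed summed to the same value in every library, the site numbers differed by a log2 ratio of -0.04 and the share of tall sites was 1.54 percentage points higher in sym_rehyPB (exact permutation p = 0.1). When heights were thinned to the smallest sum before the floor of 5 was applied again, which left 7.04% of the file total listed in sym_rePB and 4.88% in sym_rehyPB, the log2 ratio of site numbers was -0.60 and the tall shares were 9.89% in both groups (exact permutation p = 1.0).

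Sites within 1 kb of a gene start took a larger share in the hyperactive libraries. This 1 kb measure was added after the data were seen, and the planned 5 kb measure overlapped between the groups. Within 1 kb of an annotated start lay 11.1%, 12.3% and 12.01% of sites in sym_rePB and 12.99%, 12.9% and 13.3% in sym_rehyPB. The groups did not overlap, and the difference was 1.27 percentage points (exact permutation p = 0.1, adjusted 0.217). In numbers, sites within 1 kb of a start averaged 336 in sym_rePB and 506 in sym_rehyPB, a ratio of 1.505, against 1.33 for sites farther away. The innermost 500 bases held 4.96% ± 0.24 of sites against 5.65% ± 0.30 (SD, n = 3 each), 0.688 of those 1.27 points, and there too the groups did not overlap. From 1 kb outward every distance class overlapped between the groups. At 5 kb the shares were 30.7% ± 0.5 and 31.3% ± 0.3, and these overlapped. By height, the shares within 1 kb of a start were 11.2% ± 0.4 and 12.4% ± 0.3 at heights of 5 to 6, with no overlap between the groups. They were 13.3% ± 1.1 and 14.6% ± 1.0 at heights of 7 to 9 and 11.95% ± 1.36 and 13.6% ± 2.3 at 10 to 19, with overlap. At heights of 20 or more, where few sites were listed, they were 9.34% ± 5.62 and 8.51% ± 3.16, the other way round and with overlap. Starts on chromosome 8 were not used here, and its sites are left out of these shares. The set of starts also lacked some genes elsewhere, PPP3CA among them, and sites near those were not left out.

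**Figure D2:**
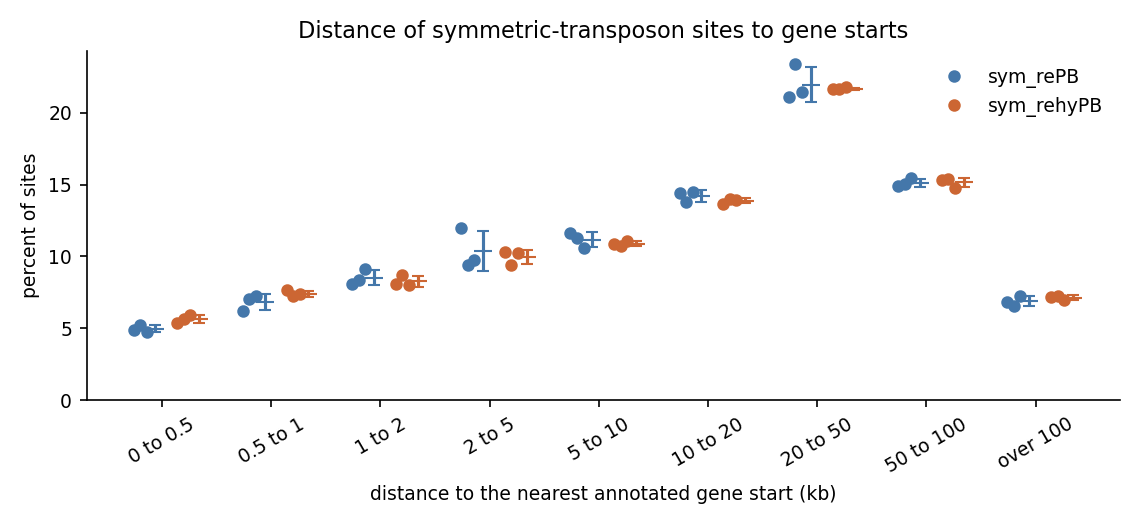
Percent of sites in each class of distance to the nearest annotated gene start, in kb, for the 3 sym_rePB and 3 sym_rehyPB libraries (points; bars are the mean and SD). The groups are apart in the class from 0 to 0.5 kb and overlap in the others.

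The shares of sites inside genes overlapped between the groups. Annotated genes held 62.0% ± 0.5 of sites in sym_rePB and 61.4% ± 0.5 in sym_rehyPB, and protein-coding genes 48.0% ± 0.7 and 47.7% ± 0.4 (SD, n = 3 each). Exact permutation tests gave p = 0.2 and p = 0.8. With heights thinned to the smallest sum, the coding share was 1.65 percentage points lower in sym_rehyPB (47.7% against 46.1%, exact permutation p = 0.1), and with heights of 10 or more it was 0.377 points higher (p = 0.9 by the same exact test). Within 5 kb of either end of a gene lay 46.2% ± 1.4 and 46.9% ± 0.1. Among peaks inside exactly 1 coding gene of known strand, 42.7% ± 1.3 in sym_rePB and 41.3% ± 1.5 in sym_rehyPB were on the gene's own strand. Positions listed on both strands, where the element had been read in either orientation, made up 0.925% ± 0.211 and 1.35% ± 0.31 of positions, with overlap between the groups (exact permutation p = 0.2).

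A part of the positions recurred between libraries. Over the 6 libraries there were 15535 distinct positions, of which 12331 (79.4%) were listed in 1 library and 149 (0.959%) in all 6. Positions in 1 library had a height of 10 or more in 6.71% of their listings, and those in all 6 libraries in 54.0%. Within 1 kb of a gene start lay 9.51% of positions seen in 1 library and between 13.95% and 18.3% of those seen in 2 or more. The share of a library's sites that another replicate of its group also listed was 30.3% ± 3.0 in sym_rePB and 30.1% ± 1.6 in sym_rehyPB (exact permutation p = 1.0). The sym_rehyPB lists are longer. With every library reduced at random to the smallest number of sites the shares were 28.7% and 23.4%, a difference of -5.33 percentage points (exact permutation p = 0.1). That reduction drops sites whatever their height, and more of them from the longer lists. Thinned to the smallest file total, the difference had the other sign, so a lower sharing in sym_rehyPB is not settled here. With heights of 10 or more they were 34.7% and 30.5% (exact permutation p = 0.1).
Most positions that every library of a group listed were also found with the other transposase. Of the 347 positions listed in all 3 sym_rePB libraries, 37 were in no sym_rehyPB list. Of the 474 listed in all 3 sym_rehyPB libraries, 84 were in no sym_rePB list. These were 0.238% and 0.541% of the 15535 positions. Since the sym_rehyPB lists are longer, the larger number is a description of these lists and not a test. A position in PCDH7 128938 bases from the gene start had heights of 11, 8 and 15 in sym_rehyPB and was in no sym_rePB list. Another in the same gene, 51897 bases from the start, had heights of 7, 11 and 10 in sym_rePB and was in no sym_rehyPB list.
Lists of the same transposase overlapped slightly more on average than lists of different ones. The overlap of a pair of lists was taken as 2 times the shared positions over the summed list lengths. It averaged 20.8% within a transposase (19.4% to 22.7% over 6 pairs) and 19.2% between them (17.1% to 21.04% over 9 pairs). Within sym_rePB and within sym_rehyPB the means were 20.8% and 20.8%. The difference was 1.56 percentage points, and an exact permutation test of the library labels gave p = 0.1, the smallest it can give. The pairs of sym_rePB replicate 1 with sym_rehyPB libraries had 17.1%, 17.1% and 17.6%. Other pairs between transposases had 19.4% to 21.04%, inside the range within a transposase. List lengths differ between the groups, which limits how high this overlap can be between them, and that part was not tested.
Recurring positions were also those that other transposon designs used. Positions listed in 1 symmetric library were found in the pooled lists of the short transposon with hyperactive piggyBac in 19.3% of cases, and those in all 6 symmetric libraries in 99.3%. For the wild-type transposon with re-engineered piggyBac the shares were 59.6% and 91.3%. For piggyBat, a related transposon system from a bat, they were 6.88% and 34.2%. Of the sites of single symmetric libraries, 10.3% ± 1.5 in sym_rePB and 10.4% ± 0.4 in sym_rehyPB were in none of the lists of the other 21 libraries.

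PCDH7, a cell adhesion protein of the protocadherin family on chromosome 4 (chr4:30720369-31146800), held more sites than any other coding gene in both groups. Its sites numbered 77, 80 and 81 in sym_rePB and 92, 91 and 106 in sym_rehyPB. Relative to all sites of the library these were 240, 284 and 258 per 10000 in sym_rePB and 233, 239 and 232 per 10000 in sym_rehyPB. The share was thus lower in every sym_rehyPB library, by 25.8 per 10000 (exact permutation p = 0.1, adjusted 0.217), and without sym_rePB replicate 2 the difference was -13.96 per 10000. With heights of 10 or more it was -91.8, thinned to the smallest file total -42.0, and with equal numbers of sites -15.4 per 10000 (exact permutation p = 0.2, 0.2 and 0.6). Thinned further, to the smallest file total among these and the short-transposon libraries, the difference was 2.06 per 10000 and the groups overlapped. The 6 libraries listed 265 distinct positions in the gene, 141 of them in 1 library and 5 in all 6. Its first 25 kb held at most 1 site in any library, while the window from 100 to 125 kb held 16, 16 and 16 sites in sym_rePB and 11, 17 and 20 in sym_rehyPB. No site lay beyond 400 kb, near the end of this 426.4 kb gene. The tallest PCDH7 peaks had heights of 20 to 26 in sym_rePB and 19 to 28 in sym_rehyPB.

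**Figure D3:**
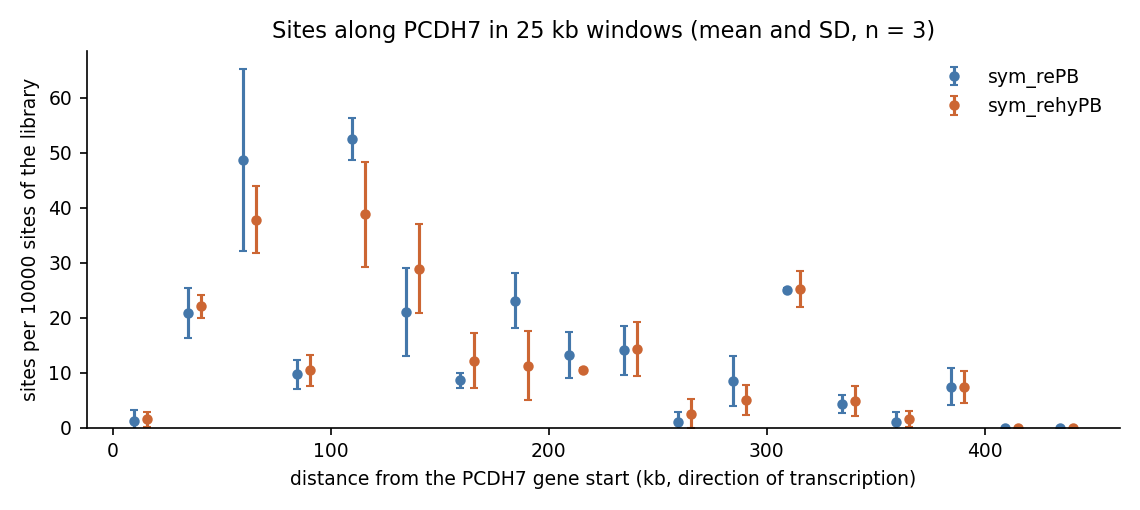
Sites in PCDH7 per 10000 sites of the library, in windows of 25 kb from the gene start in the direction of transcription (points are means of 3 libraries, bars the SD). Both groups have their highest windows at 50 to 75 kb and 100 to 125 kb, with a low window between them, and no sites beyond 400 kb.

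No coding gene separated the groups in the fit. Per coding gene, the model was limma on log2 sites per 10000, and 0 of the 36 genes with enough sites passed an adjusted p of 0.05 (0% called; 1 gene, 2.78%, had an unadjusted p under 0.05). VTI1A, a SNARE protein of vesicle fusion, held 30, 21 and 28 sites in sym_rePB and 32, 34 and 33 in sym_rehyPB (log2 difference in share -0.09 ± 0.14, SE). DLGAP1, a scaffold protein of synapses, held 23, 21 and 18 against 22, 25 and 28 (-0.16 ± 0.15). NSMCE2, a SUMO ligase of DNA repair, held 16, 15 and 21 against 24, 15 and 28 (-0.10 ± 0.20). Shares of these 3 genes overlapped between the groups. MPP7, a scaffold protein of cell polarity, held 16, 15 and 13 sites against 26, 25 and 20 (0.24 ± 0.19). PHLDB2, which anchors microtubules at the cell edge, held 14, 12 and 15 against 23, 21 and 24 (0.29 ± 0.16), and its shares were higher in all 3 sym_rehyPB libraries with no overlap, though limma's adjusted p was 0.624. The remaining genes of the leading 10 were PPP3CA, the catalytic subunit of calcineurin, PALLD, an actin-binding protein, VMP1, a membrane protein of autophagy, and MTHFD1L, a mitochondrial folate enzyme. Their log2 differences lay between -0.21 and -0.02. Together the 10 genes took between 6.59% and 7.39% of a library's sites. Per 100 kb of gene, PCDH7 had the densest use of these 10, with 58.1 sites per 10000, followed by VMP1 with 25.8, PHLDB2 with 20.5 and VTI1A with 20.4. Outside these 10, ACSL5, a shorter gene singled out after its values were seen, had 33.3, more than VMP1.
Among all 36 genes tested, the largest differences upward were those of TXNRD1, which reduces thioredoxin (log2 0.93 ± 0.48, SE), MYOF, a membrane repair protein (0.87 ± 0.49), and PRKACB, a catalytic subunit of protein kinase A (0.60 ± 0.48). None passed the limma test. TXNRD1 held 2, 1 and 3 sites in sym_rePB and 7, 6 and 4 in sym_rehyPB. The largest downward were SYTL3, an effector of vesicle transport (-0.80 ± 0.28, limma adjusted p = 0.493), GSE1, a nuclear protein (-0.79 ± 0.56), and CUX1, a homeodomain transcription factor (-0.75 ± 0.67). SYTL3 held 8, 8 and 7 sites against 6, 4 and 8, so its share was lower in every sym_rehyPB library although the sites themselves overlapped. Shares did not overlap between the groups for 5 of the 36 genes (13.9%), 2 of them (5.56%) higher in sym_rehyPB.
The gene lists, chosen with earlier results of these libraries known, gave few tested members. Of the 5 genes named as hot spots before, 4 could be tested, and ZBTB20, a transcriptional repressor, held 3, 4 and 1 sites against 4, 5 and 4 (log2 difference 0.32 ± 0.52). Among 17 growth factor receptor and RAS-PI3K genes, MET, the receptor of hepatocyte growth factor, was the member tested, with 5, 4 and 4 sites against 7, 3 and 6 (-0.22 ± 0.36). Among 14 tumour suppressors and cell-cycle brakes it was SMAD3, a transducer of TGF-beta signals, with 3, 5 and 3 against 4, 3 and 5 (-0.30 ± 0.41). Among 12 cadherin and junction genes it was PCDH7 itself. Of 20 Wnt pathway genes 8 held a site, and of 16 gut transcription factors 5 did, but none had enough sites for the test. None of the lists had a member past the threshold, and the median log2 difference of the tested hot-spot genes was -0.12.

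The distribution along the chromosomes did not separate the groups in the fit. In bins of 5 Mb, limma called 0 of 343 bins (0%) at an adjusted p of 0.05, and 23 (6.71%) had an unadjusted p under 0.05. The groups did not overlap in 43 bins (12.5%), 18 of them (5.25%) higher in sym_rehyPB. The largest upward difference was in the bin of chromosome 1 between 60 and 65 Mb, with 0, 0 and 3 sites against 3, 6 and 9 (log2 2.23 ± 1.09, SE). Next was chromosome 6 between 15 and 20 Mb, with 1, 2 and 0 sites against 5, 5 and 11 (2.09 ± 0.81). The largest downward were both on chromosome 8, in the bins that begin at 10 Mb (-1.70 ± 0.78) and at 50 Mb (-1.43 ± 0.61). Whole-chromosome shares did not overlap between the groups for 3 of 23 chromosomes (13%). Chromosome 8 held 6.57%, 6.22% and 6.9997% of sites in sym_rePB and 5.87%, 5.92% and 5.80% in sym_rehyPB. Chromosomes 6 and 12 had the opposite direction, with differences of 0.297 and 0.358 percentage points.

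At positions listed in all 6 libraries, more peaks were taller than shorter in the hyperactive libraries. Listed on 1 strand in all 6 libraries, each with a height of at least 5, were 134 positions, of which 54 lay in a coding gene, 5 in PCDH7 and 17 within 1 kb of a start. Heights were scaled per 100000 of the file total. The median log2 difference was 0.32, 101 of the 134 differences were above 0, and in 21 positions (15.7%) the groups did not overlap, always with sym_rehyPB higher. Single positions did not pass: limma called 0 of 134 (0%), and 12 (8.96%) had an unadjusted p under 0.05. Scaling to the median over these same positions centres the differences by construction (median -0.03, 63 of 134 above 0), so it bears on single positions relative to the rest and not on the common shift. So scaled, the groups did not overlap in 16 of the 134 positions, 9 of them higher in sym_rehyPB, and limma called 0 of 134.
The tallest recurring position lay at chr12:12883057 on the plus strand, 69113 bases from the start of GPRC5D. That was the nearest of the starts used, a set that lacks some genes, so a nearer start is possible. Its raw heights were 41, 32 and 28 in sym_rePB and 52, 31 and 43 in sym_rehyPB, and the groups overlapped (log2 0.37 ± 0.27, SE). At chr22:37777117 on the minus strand, outside annotated genes, heights were 18, 21 and 25 against 48, 29 and 21 (0.61 ± 0.32). In CRTAP, a gene of collagen modification, the position chr3:33115319 on the minus strand had heights of 28, 6 and 34 against 21, 25 and 22 (0.40 ± 0.44), and its direction rested on sym_rePB replicate 2, without which it was -0.385. In MPP7, chr10:28089224 on the minus strand had heights of 21, 11 and 17 against 29, 18 and 38 (0.84 ± 0.35). At chr16:69409716 on the plus strand, 14903 bases from the start of CYB5B, heights were 19, 19 and 21 against 16, 22 and 34 (0.29 ± 0.33). In the RNA gene CASC21, chr8:127254091 on the plus strand had heights of 15, 16 and 18 against 28, 26 and 26 (0.78 ± 0.32), with no overlap between the groups and a limma adjusted p of 0.303.

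**Figure D4:**
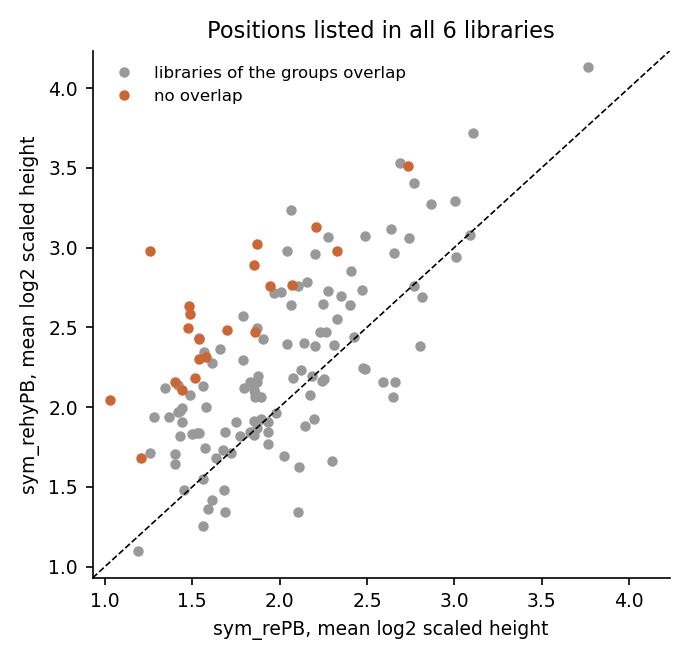
Mean log2 peak height per 100000 of the file total at the 134 positions listed on 1 strand in all 6 libraries, sym_rePB (x) against sym_rehyPB (y), with the line of equal height. Of the 134 points 101 lie above the line, and the 21 marked positions are those whose libraries do not overlap between the groups.

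The hyperactive change went with other differences when the transposon was different. With the short transposon, where the parental enzyme was not re-engineered, site rates were 48122 ± 3812 without and 29098 ± 493 with the hyperactive change (SD, n = 3 each). The log2 difference was -0.72 there and 0.49 with the symmetric transposon. The difference between them passed a permutation test (p = 0.005, the smallest it can give, adjusted 0.01 over 22 tests). For each test between pairs, the estimated common difference was removed first and every split of labels within the pairs was counted. Exact permutation refers there to that full count, and the p-values are approximate. The share of tall sites was 26.3% ± 2.0 and 18.6% ± 0.2 with the short transposon, a difference of -7.76 percentage points against 3.19 with the symmetric one (exact permutation p = 0.005, adjusted 0.01). PCDH7 held 115 and 179 sites per 10000 with the short transposon, a difference of 63.6 against -25.8 in the symmetric pair (exact permutation adjusted p = 0.01). Thinned to the same file total, the symmetric difference was 2.06 against 79.7 with the short transposon, and the call was lost (exact permutation adjusted p = 0.066). The share within 1 kb of a start was 9.55% ± 0.12 and 12.9% ± 0.1 with the short transposon, a larger difference than the 1.27 percentage points of the symmetric pair (exact permutation adjusted p = 0.01).
The wild-type transposon was read with the same transposases but in far deeper libraries, with mean file totals of 11690566 and 8727245. There the site rates were 47414 ± 842 and 43049 ± 2261, a log2 difference of -0.14 (exact permutation adjusted p = 0.01 for the difference from the symmetric pair). When all were thinned to the same file total the symmetric difference minus the wild-type one was -0.85 in place of 0.63 (exact permutation adjusted p = 0.02). That thinning starts from lists without heights under 5 and removes a larger share of the deeper libraries of the wild-type transposon with re-engineered piggyBac than of those with its hyperactive form, leaving 647 to 717 sites against 1407 to 2366, so the direction with this transposon is not settled here. The share of tall sites was 58.0% ± 1.3 and 62.0% ± 2.8, and its difference of 3.998 percentage points did not pass the test against the symmetric pair (exact permutation adjusted p = 0.665). After the same thinning it was 0.956 against 3.64 points in the symmetric pair. The difference between them, 2.68 points, passed (exact permutation adjusted p = 0.0138). That thinning left only 0, 4 and 4 tall sites with re-engineered piggyBac and 33, 22 and 21 with its hyperactive form. With so few left, a large wild-type difference could hardly appear, so nothing is concluded from that call.

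**Figure D5:**
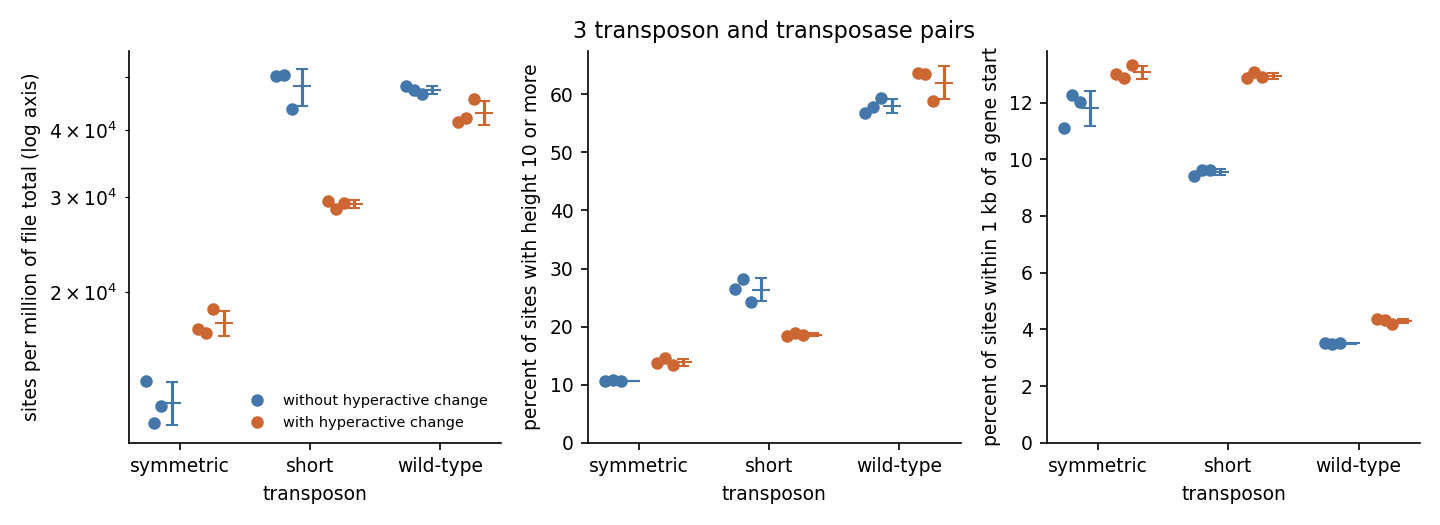
Site rate per 1000000 of the file total (log axis), percent of sites with a height of 10 or more and percent of sites within 1 kb of a gene start, for the transposases without and with the hyperactive change on the symmetric, short and wild-type transposon (points are libraries, bars the mean and SD). With the symmetric transposon the libraries with the change lie higher in each panel, and with the short transposon they lie lower in the first and second.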

How the data were processed

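Each library was a headerless list of peaks called per sample, with deposited coverage signal (a sum and a maximum, the peak height) and a constant taken as the file total. No header or label defines that constant. The submitters' processing notes name cutadapt 3.4, HISAT2 2.2.1.0, hg38 and GRCh38.p5, with no roles. The peak caller and any removal of duplicates are not given in the sources used here. The reads were amplified and carry no molecular identifiers, so heights are not molecule counts.

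From these a site was set as the first base of the target: the peak start on the plus strand, the peak end minus 3 on the minus strand, on chromosomes 1 to 22 and X. Genes and starts came from RefSeq on GRCh38.p14. Single values were compared with exact two-sided permutation tests, adjusted over 13 measures by Benjamini-Hochberg. The measure within 1 kb of a start and the summed height were added after the data were seen. Differences between pairs of groups were tested after removal of their estimated common difference, so those p-values are approximate. Bins, genes (a mean of at least 3 sites, prior of 0.5) and positions were fitted with limma 3.58.1 in R 4.3.3, tested first on simulated data. Other work used Python 3.11.15. The members, lists and tests were chosen with earlier results of these data known. Genes named were the 10 with the highest mean share, the 3 largest differences in either direction where fewer than 5 passed, and tested list members; positions were the 6 tallest listed in all libraries, and bins the 2 largest in either direction. Same-numbered libraries correlated at -0.01, 0.11 and -0.06 over bins, so the numbers were not taken as pairs. Alternatives were a height of 10, thinning, merging, left-out libraries, scaling and a replicate block.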

Additional observations from a re-analysis of the deposited data

Results flagged for a closer look

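In 15 cases the difference that goes with the hyperactive change differed between the symmetric transposon and another. The call was an adjusted p under 0.05 in the permutation test between pairs, whose p-values are approximate. Values are the symmetric difference minus the other. Against the short transposon these were 0.75 for log2 sites, 1.21 for the log2 site rate, 10.95 percentage points for tall sites and 23.5 percentage points for the summed height. They were -2.96 percentage points for sites within 5 kb of a gene end, -4.35 and -2.12 for sites within 5 kb and 1 kb of a start, -20.0 for sites shared between replicates and -0.913 for positions on both strands, and -89.4 per 10000 for PCDH7. Against the wild-type transposon they were 0.99 for log2 sites, 0.63 for the log2 site rate, -1.51 percentage points for sites in genes, 1.53 for positions on both strands and -32.8 per 10000 for PCDH7. Thinned to equal file totals, several of these did not hold. Against the wild-type transposon both site measures turned to -0.85 and PCDH7 to 81.9, and the value for positions on both strands (0.330) was no longer called. Against the short transposon the value for PCDH7 (-77.6) was no longer called. The short pair differs in its parental transposase as well, and that part was not tested. The wild-type pair differs in depth, and the thinned values do not settle that part. Thinning left 647 to 717 sites in its libraries with re-engineered piggyBac and 1407 to 2366 in those with the hyperactive form. Groups of 3 libraries were not searched for outlying values.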

How the results depend on the processing

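No single-value test can pass 0.05 with 3 libraries against 3, so directions are given. The log2 site rate kept its direction without any 1 library (0.43 to 0.56), as did log2 sites (0.34 to 0.48), tall sites (2.87 to 3.42 percentage points) and sites within 1 kb of a start (0.92 to 1.51). Thinning all libraries to the smallest summed height, which left the thinned ones below it, moved the coding-gene share to -1.65 and turned log2 sites (-0.60), log2 site rate (-0.53), the summed height (-2.16), positions on both strands (-0.109), tall sites (-0.000732) and log2 width (0.37); with equal listed heights, log2 sites was -0.0407 and log2 width 0.22. Both settings were chosen after seeing the data. With heights of 10 or more the gene share was 0.284, the coding-gene share 0.377, positions on both strands -0.00362, and log2 differences 0.23 for DLGAP1, -0.26 for PHLDB2 and 0.0538 for VMP1. Thinned to the smallest file total, replicate sharing was 0.137, PPP3CA 0.0184 and PALLD 0.0701; thinned to the smallest number of sites, which gives no value for the site number itself, log2 width was 0.00341, VTI1A 0.0371, DLGAP1 0.0081 and PPP3CA 0.24. Log2 width was 0.00729 without PCDH7, and chr16:69409716 was -0.0611 when scaled to the median. Leaving out single libraries gave -0.112 to 1.11 for the gene-end share and -1.91 to 1.41 for replicate sharing. Replicate sharing was there counted per pair of libraries, unlike the main value. Leaving them out also gave -0.0631 to 0.0805 for log2 width, -0.202 to 0.105 for NSMCE2, -0.152 to 0.196 for PPP3CA and -0.124 to 0.125 for PALLD. It gave -0.239 to 0.024 for VMP1, -0.462 to 0.0598 for MET, -0.168 to 0.705 for ZBTB20 and -0.385 to 0.837 for chr3:33115319.

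For limma, 0 genes were called in each alternative run. Bins gave 2 of 299 tested when thinned to the smallest number of sites, and 1 of 343 with all 15 shallow libraries in the fit. The latter was chromosome 6, 15 to 20 Mb (limma adjusted p = 0.0136). Other settings called 0 bins. Positions gave 1 of only 20 tested with heights of 10 or more. With 1 library left out they gave 2 of 170 without sym_rePB replicate 2, 1 of 171 without sym_rehyPB replicate 2, and 0 otherwise.

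Thinned to equal file totals, the difference between the symmetric and wild-type pairs was -0.85 for log2 sites and log2 site rate, 2.68 for tall sites, 81.9 for PCDH7 and -0.651 for sites within 1 kb of a start, and the 0.330 for positions on both strands lost its call; against the short pair PCDH7 lost its call (-77.6). The replicate block leaves every such value as it was, and its smallest p of 0.1 (adjusted 0.122) ends each call: 0.75, 1.21, -2.96, -20.0, -0.913, 10.95, -89.4, -4.35, -2.12 and 23.5 against the short pair, and 0.99, 0.63, -1.51, 1.53 and -32.8 against the wild-type pair. The cause of these changes was not tested. The floor of 5 in the lists and the low site numbers limit what can be seen: sites with lower heights are not listed, and single genes rest on few sites.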
